A study of Homo sapiens with 6 samples.

Results

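The Wnt pathway genes WNT11, WNT5A, WNT5B, DKK1, LRP5, LRP6, LGR4, RNF43, ZNRF3 and AXIN2 were followed through 6 RNA-seq libraries of U2OS 2-6-3 cells. They are 10 of the 26850 genes to which the deposited transcript entries could be assigned, each represented by its entry with the most reads. The 10 genes were named by symbol, and the set was chosen on fold changes in these same cells: WNT11 and RNF43 were already known to stand far lower in mock cells than in untransfected cells, and the rest are their pathway partners. Differences from untransfected cells are therefore given as descriptions, without p-values for the 10 genes.

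U2OS 2-6-3 is a subclone of a human osteosarcoma line that carries a chromosomal reporter array with tet operators, to which TetR proteins bind. Sample cells carried 3 plasmids, for CIBN-TetR, for PHR-YFP-VP16 and for mCherry-MCP. PHR binds CIBN under blue light, which recruits the VP16 activation domain to the tet operators of the array, and MCP binds the MS2 loops of the reporter RNA. Mock cells were transfected with TetR-RFP and YFP. Untransfected cells received no plasmid. Each group had 2 libraries, all groups were kept in white light overnight, and all grew in medium with serum free of doxycycline. The labels do not say whether the libraries of a group came from separate cultures, so the spread between them may be technical. All cells come from 1 line and 1 transfection reagent was used, so reagent and plasmid effects cannot be told apart in the comparisons with untransfected cells.

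Wnt proteins are secreted ligands that bind Frizzled receptors at the cell surface. In the canonical branch the co-receptors LRP5 and LRP6 join Frizzled, AXIN and the rest of the destruction complex are held at the membrane, and beta-catenin accumulates and activates target genes with TCF and LEF factors. RNF43 and ZNRF3 are membrane ubiquitin ligases that remove Frizzled from the surface, and R-spondins acting through LGR receptors take those ligases away. AXIN2, DKK1, RNF43 and ZNRF3 are known as feedback genes because beta-catenin signalling can induce them. WNT11, WNT5A and WNT5B are best known for non-canonical signalling through planar cell polarity and calcium.

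Sample cells had 50105854 and 9579278 reads summed over transcript entries, mock cells 54177551 and 44594507, and untransfected cells 53596406 and 51146190. The shallower sample library stood apart in its depth: 3 reads there equal 12.4 normalized counts, against 1.95 to 2.78 in the other 5 libraries. Across 14891 genes the log2 difference between the libraries of a pair had an SD of 0.601 in sample cells, 0.304 in mock cells and 0.242 in untransfected cells. Values below are normalized counts, that is reads divided by a size factor for each library, given for the deeper library first and the shallower second. Of 9 osteoblast lineage markers 8 had reads, among them RUNX2, SPARC and COL1A1, while SP7 had 1 read in all and IBSP had none. Of 5 blood markers CD3E had no reads, and the summed level of the list was 34.4 and 16.5 in sample cells, 29.8 and 37.1 in mock cells, and 27.9 and 15.7 in untransfected cells. Summed endothelial markers (all 5 with reads) were 50.9 and 57.6 in sample cells, 49.6 and 47.3 in mock cells, and 170.2 and 199.6 in untransfected cells. Epithelial markers (all 5 with reads, most of the sum from KRT18) summed to 9027 and 10483 in sample cells, 9119 and 10735 in mock cells, and 5397 and 5709 in untransfected cells, and osteoblast lineage markers to 28489 and 36963, 27143 and 28162, and 40445 and 41190 in the same order of groups. The endothelial and osteoblast sums were lower and the epithelial sum higher in both transfected groups, as were several of the genes below, and their part in those results was not tested. In bulk RNA fewer cells of a type and less RNA per cell cannot be told apart.

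The sequence before a transcription start is shown for RNF43 and DKK1, because these feedback genes differed most from untransfected cells in opposite directions among those with an entry in the promoter table. The sequences are from RefSeq, build GRCh38.p14, and 6 of the 10 genes had an entry, with WNT11, ZNRF3, AXIN2 and LRP6 as the others. Each window holds the 250 bases before the start, read 5′ to 3′ on the strand of the gene, and was searched on both strands for CTTTGA and CTTTGT, the letters at the core of the TCF/LEF recognition sequence, and for the AP-1 letters TGANTCA. Capitals mark CTTTGA or CTTTGT on either strand. For the longer RNF43 start only the 202 bases before the deposited entry are printed.
RNF43, start of the shorter entry, chr17:58402722-58402971, minus strand: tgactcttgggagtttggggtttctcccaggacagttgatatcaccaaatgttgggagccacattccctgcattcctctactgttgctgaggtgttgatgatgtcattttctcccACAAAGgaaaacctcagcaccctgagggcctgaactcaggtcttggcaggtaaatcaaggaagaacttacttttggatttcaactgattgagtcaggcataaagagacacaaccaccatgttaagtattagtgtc
RNF43, bases before the longer entry, chr17:58417583-58417784, minus strand: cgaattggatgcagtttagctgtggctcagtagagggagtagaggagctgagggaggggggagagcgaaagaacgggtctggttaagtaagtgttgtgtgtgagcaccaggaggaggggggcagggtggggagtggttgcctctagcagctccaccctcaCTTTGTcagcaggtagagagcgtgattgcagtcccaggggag
DKK1, chr10:52314031-52314280, plus strand: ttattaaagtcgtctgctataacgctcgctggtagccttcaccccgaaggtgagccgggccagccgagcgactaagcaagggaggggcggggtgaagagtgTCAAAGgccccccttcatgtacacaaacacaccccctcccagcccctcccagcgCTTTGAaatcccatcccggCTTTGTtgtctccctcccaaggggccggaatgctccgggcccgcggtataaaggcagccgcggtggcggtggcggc

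DKK1 held 3 matches, at 149 to 144, 95 to 90 and 76 to 71 bases before its start. RNF43 held 1 match in each window, at 135 to 130 bases before the shorter start and at 90 to 85 bases before the longer RefSeq start, which lies inside the deposited entry. The shorter RNF43 start also had an AP-1 match at 47 to 41 bases before it. LGR4, LRP5, WNT5A and WNT5B had none of these letters in their windows. Among 35097 promoter windows of the same length, 22.8% held CTTTGA or CTTTGT and 6.57% held TGANTCA, so a match is a common feature and marks no site of binding.

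Among the ligands, WNT11 was nearly lost in both transfected groups while WNT5A and WNT5B stayed close to their untransfected levels. WNT11 (chr11:76186326-76206530 of hg38, minus strand, 5 exons) stood at 3.91 and 0 normalized counts in sample cells, 6.38 and 3.71 in mock cells, and 582 and 596 in untransfected cells. Every transfected library lay far below both untransfected libraries. These values rest on 5 and 0 reads in sample cells and 9 and 4 in mock cells, against 896 and 836 in untransfected cells. With reads summed per group, the normalized level was 0.00558 times that of untransfected cells in sample cells (95% counting interval 0.00181 to 0.0131) and 0.00887 times in mock cells (0.00472 to 0.0152). Intervals on reads are exact and cover counting error only. The authors' deposited table gave WNT11 a log2 fold change of -5.76 (SE 0.37) for sample and of -6.02 (SE 0.32) for mock against untransfected cells.

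WNT5A (chr3:55465715-55487642, minus strand, 5 exons), the ligand best known for signalling through ROR receptors, stood at 1015 and 861 normalized counts in sample cells, 999 and 963 in mock cells, and 895 and 859 in untransfected cells. Sample and untransfected cells overlapped, whereas both mock libraries were slightly above both untransfected ones. Its log2 fold changes of 0.11 (SE 0.16) in sample and 0.18 (SE 0.10) in mock cells against untransfected cells were not called in the authors' deposited table. The 95% limma interval of the log2 difference of WNT5A ran from -0.08 to 0.37 for sample and from -0.04 to 0.36 for mock cells against untransfected cells. WNT5B (chr12:1617056-1647211, plus strand, 5 exons), its close paralog, stood at 151 and 165 normalized counts in sample cells, 139 and 155 in mock cells, and 168 and 189 in untransfected cells. All 4 transfected libraries were a little lower than both untransfected ones, with log2 fold changes of -0.18 (SE 0.27) in sample and -0.25 (SE 0.21) in mock cells, neither called in the authors' deposited table. The mock difference of WNT5B became -0.42 on the log2 scale and was called lower by limma when libraries were scaled to their total counts, a scaling that moved the median of all genes to -0.13.

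**Figure D1:**
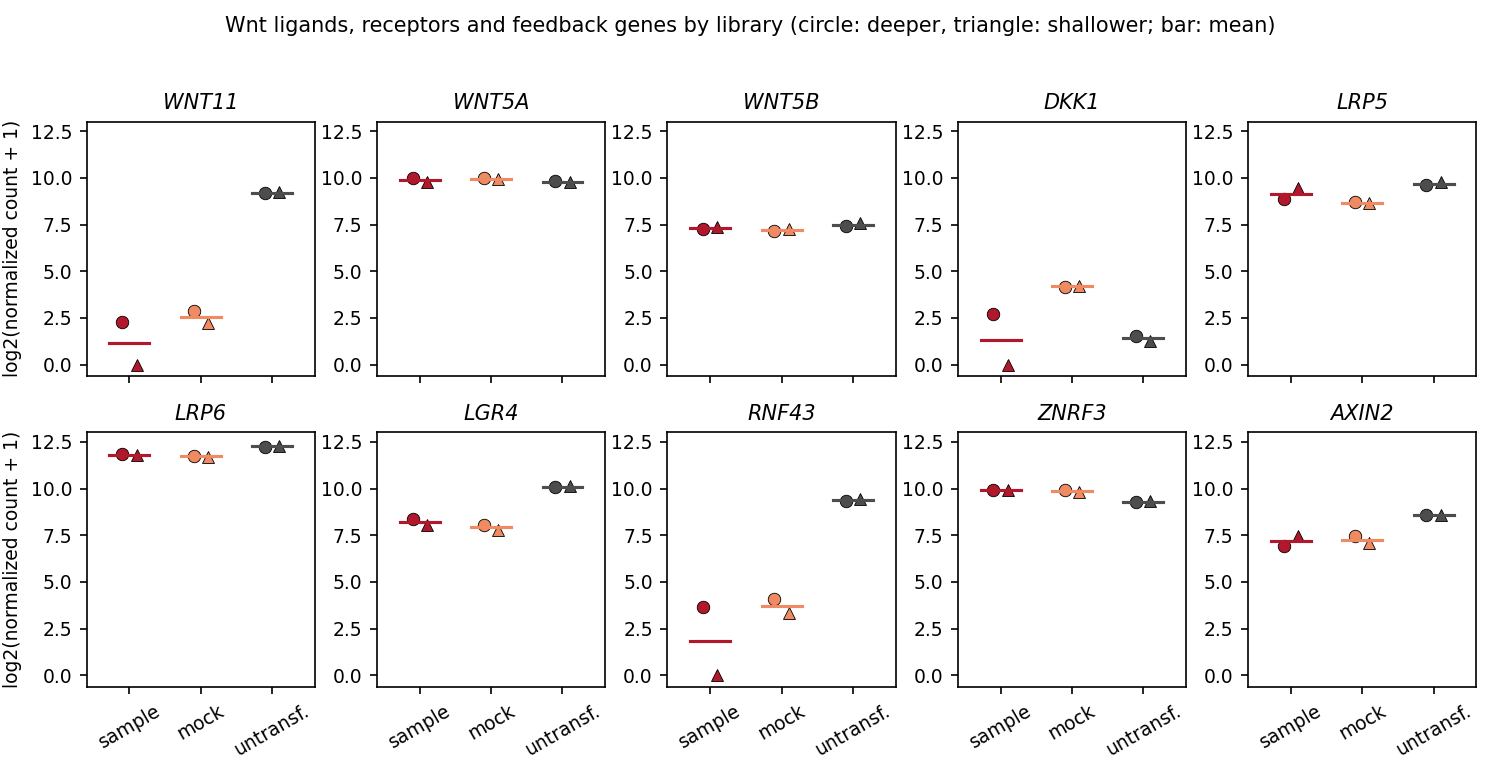
Level of each of the 10 genes in every library, as log2(normalized count + 1) on 1 shared vertical scale, with sample, mock and untransfected cells from left to right. Circles are the deeper and triangles the shallower library of a pair, and bars are means of the plotted log2 values (n = 2). WNT11 and RNF43 stand several log2 units lower in all transfected libraries, and LRP6 and WNT5A change little on this scale.

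DKK1, a secreted antagonist that binds LRP5 and LRP6, was scarce in all groups and highest in mock cells. It (chr10:52314281-52317657, plus strand, 4 exons) had 7 and 0 reads in sample cells, 24 and 19 in mock cells, and 3 and 2 in untransfected cells. As normalized counts these were 5.48 and 0 in sample cells, 17.0 and 17.6 in mock cells, and 1.95 and 1.43 in untransfected cells. Both mock libraries lay above the other 4, and sample and untransfected cells overlapped. The ratio of summed normalized reads of DKK1 in mock to untransfected cells was 10.2, with a 95% counting interval from 4.04 to 32.9, and in sample to mock cells it was 0.266 (0.101 to 0.597). A count of 0 in the shallower sample library allows up to 12.4 normalized counts, which is below the mock values and above the untransfected ones. The authors' deposited table gave DKK1 a log2 fold change of 1.83 (SE 0.53) for mock against untransfected cells, gave no adjusted p for sample against untransfected cells, and did not call it for sample against mock cells (-0.08, SE 0.05). Deposited log2 values for sample against mock cells are shrunk strongly toward 0, so this small value and SE set no close bound on the difference.

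The co-receptors LRP5 and LRP6 were both lower in transfected cells, LRP5 by the larger factor in mock cells. LRP5 (chr11:68312609-68449275, plus strand, 23 exons) stood at 472 and 688 normalized counts in sample cells, 421 and 395 in mock cells, and 781 and 862 in untransfected cells. No transfected library reached the untransfected level, but the shallower sample library lay between the deeper one and untransfected cells. Sample cells had 70.5% and mock cells 49.7% of the untransfected mean of LRP5, and its log2 fold change in the authors' deposited table was -0.52 (SE 0.20) in sample and -0.98 (SE 0.13) in mock cells. Without the deeper sample library the limma difference of LRP5 between sample and untransfected cells was -0.25 on the log2 scale and was not called, while with all libraries it was -0.66 and was called. LRP6 (chr12:12116025-12266877, minus strand, 23 exons) stood at 3626 and 3549 normalized counts in sample cells, 3440.4 and 3292 in mock cells, and 4833 and 4935 in untransfected cells. Its pairs lay close together and all transfected libraries were lower than both untransfected ones, at 73.5% of the untransfected mean in sample cells and 68.9% in mock cells. The log2 fold changes of LRP6 were -0.44 (SE 0.10) for sample and -0.52 (SE 0.07) for mock against untransfected cells in the authors' deposited table.

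LGR4, the R-spondin receptor through which the ligases are cleared, stood at 328 and 259 normalized counts in sample cells, 261 and 222 in mock cells, and 1075 and 1126 in untransfected cells (chr11:27365961-27472787, minus strand, 18 exons). The transfected libraries were all far below the untransfected ones and the transfected groups overlapped. Mean levels were 294 ± 48.4 in sample cells, 241 ± 27.8 in mock cells and 1100.4 ± 36.4 in untransfected cells (SD, n = 2). The log2 fold changes of LGR4 against untransfected cells were -1.80 (SE 0.18) in sample cells and -2.13 (SE 0.13) in mock cells in the authors' deposited table.

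The paired ubiquitin ligases RNF43 and ZNRF3, which act on the same receptors, went in opposite directions. RNF43 (chr17:58352500-58417582, minus strand, 10 exons) stood at 11.7 and 0 normalized counts in sample cells, 16.3 and 9.27 in mock cells, and 650.4 and 689.9 in untransfected cells. Like WNT11 it was close to absent in all transfected libraries, with 15 and 0 reads in sample and 23 and 10 reads in mock cells, against 1001 and 968 in untransfected cells. The normalized level from summed reads was 0.0147 times the untransfected level in sample cells (95% counting interval 0.00823 to 0.0244) and 0.0198 times in mock cells (0.0136 to 0.0279). The authors' deposited table gave RNF43 log2 fold changes of -2.88 (SE 0.50) for sample and -5.28 (SE 0.26) for mock against untransfected cells. An overlapping shorter RNF43 entry (chr17:58352500-58402721) can share its reads and had 12 and 0 reads in sample, 16 and 10 in mock, and 783 and 729 in untransfected cells. For this shorter entry the authors' deposited table holds log2 fold changes of -5.04 (SE 0.35) in sample and -5.17 (SE 0.28) in mock cells, so the deposited values of the entries differ in sample cells although their reads stand in like proportion. The limma estimates for RNF43, without shrinkage, were -6.52 for sample (95% interval -7.89 to -5.16) and -5.68 for mock cells (-6.55 to -4.81).

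ZNRF3 (chr22:28883767-29057488, plus strand, 9 exons) stood at 987 and 980.0 normalized counts in sample cells, 965 and 889 in mock cells, and 614 and 646 in untransfected cells. All 4 transfected libraries were above both untransfected ones. Sample cells had 156% and mock cells 147% of the untransfected mean of ZNRF3, and its log2 fold change in the authors' deposited table was 0.63 (SE 0.15) in sample and 0.57 (SE 0.11) in mock cells. AXIN2 (chr17:65528563-65561622, minus strand, 11 exons), a scaffold of the destruction complex and the most widely used readout of beta-catenin activity, stood at 119 and 173 normalized counts in sample cells, 173 and 133 in mock cells, and 381 and 379 in untransfected cells. Transfected libraries were all lower and overlapped each other, while the untransfected pair was almost identical. Sample cells had 38.4% and mock cells 40.2% of the untransfected mean of AXIN2, and its log2 fold change in the authors' deposited table was -1.35 (SE 0.25) in sample and -1.25 (SE 0.18) in mock cells.

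**Figure D2:**
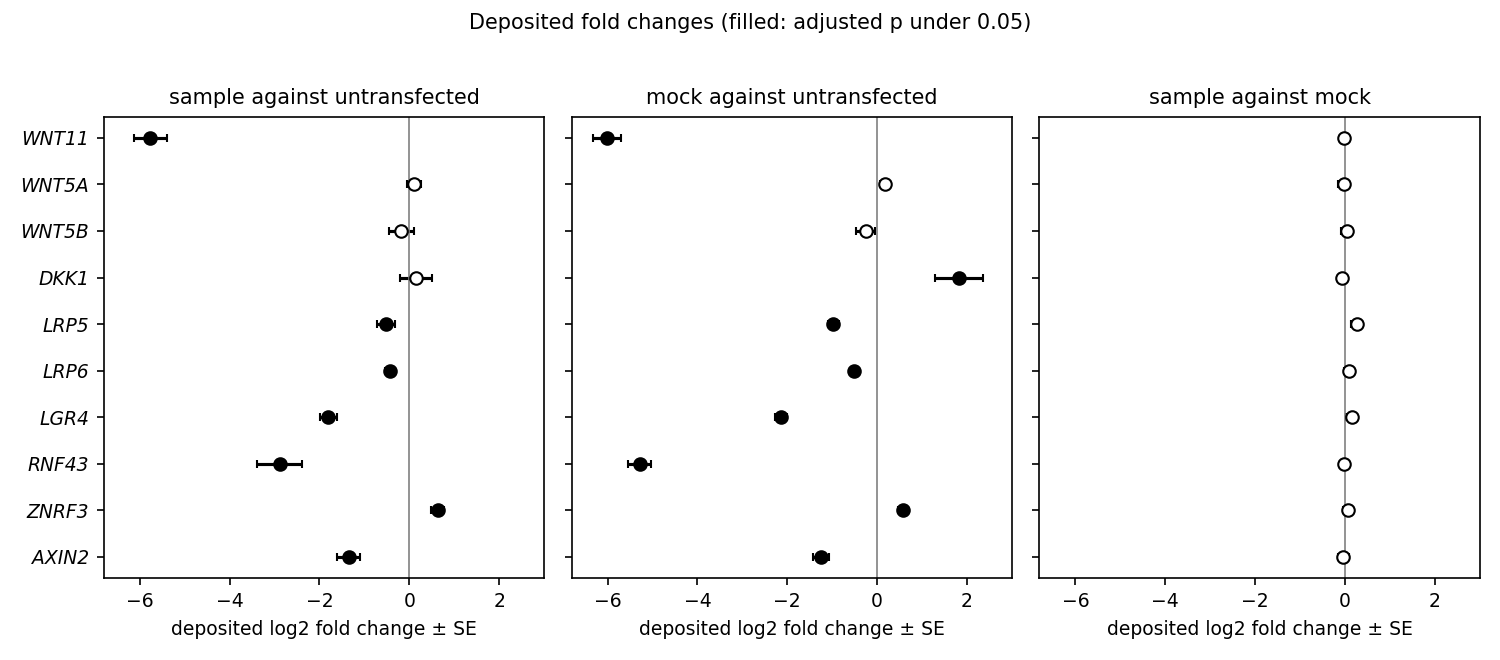
Deposited log2 fold change of each of the 10 genes with its standard error, in 3 panels for sample against untransfected, mock against untransfected and sample against mock cells. Filled points had an adjusted p under 0.05 in the authors' deposited table. The first 2 panels run from about -6 for WNT11 to positive values for ZNRF3 and, in mock cells, DKK1, and the third panel has no filled point. Values and standard errors in the third panel are shrunk strongly toward 0.

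Counted over the 10 genes, the authors' deposited table (DESeq2, adjusted p under 0.05) called 1 higher (ZNRF3) and 6 lower of the 9 tested in sample against untransfected cells, where 20.2% of 15565 genes were called higher and 17.1% lower. In mock against untransfected cells the authors' deposited table called 2 higher (ZNRF3 and DKK1) and 6 lower of 10 tested, where 27.5% of 17091 genes were called higher and 23.4% lower. The 6 lower genes were WNT11, RNF43, LGR4, AXIN2, LRP5 and LRP6 in each case, and since the comparisons share the untransfected libraries and the genes were picked with these differences known, nothing further is read from these counts. With limma on the recovered reads, 1 was higher and 6 lower of 9 tested in each of the comparisons with untransfected cells, where 26.4% of 14891 genes were called higher and 24.5% lower in sample cells, and 30.6% higher and 28.6% lower in mock cells. By limma, 51.9% of the genes called in sample against untransfected cells and 51.7% in mock against untransfected cells were higher, and these shares were 38.7% and 38.9% with libraries scaled to total counts, which put the median of all genes at -0.11 in sample and -0.13 in mock cells.

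Sample and mock cells were compared to ask how cells with the 3 sample plasmids differed from cells with TetR-RFP and YFP. The groups carried different plasmids and all were kept in white light, so an effect of light-driven recruitment cannot be told apart here. For 7 of the 10 genes the limma interval of the difference lay within 1 log2 unit of 0. That margin is wider than the deposited differences of LRP6 and ZNRF3 from untransfected cells, so smaller differences remain possible. The fit took a variance per gene shared by all groups, whereas the sample pair was the most spread (SD 0.601 against 0.304 in mock and 0.242 in untransfected cells). The intervals with sample cells may therefore be too narrow. LRP5 in sample cells stood at 142% of its mock mean, with both sample libraries above both mock libraries, and the LGR4 interval lay just above 0. Both sample libraries were also above both mock libraries for ZNRF3 (987 and 980.0 against 965 and 889) and LRP6 (3626 and 3549 against 3440.4 and 3292). How often all genes separate in this way was not counted. WNT11 and RNF43 had too few reads to bound a difference closely, and both sample libraries of DKK1 were below both mock libraries. None of the 9 tested was called in the authors' deposited table, 1 (LRP5, 0.26, SE 0.12, p = 0.0346 in DESeq2) had an unadjusted p under 0.05, and only 0.00654% of 15285 genes were called higher and 0.0589% lower. WNT11 received no adjusted p there. By limma 0 of 9 were called and 1 (LGR4) had an unadjusted p under 0.05, with 0% of 14891 genes called either way. The limma differences on the log2 scale were 0.36 for LGR4 (95% interval 0.01 to 0.71), 0.34 for LRP5 (-0.01 to 0.70), 0.10 for LRP6 (-0.06 to 0.26) and 0.08 for ZNRF3 (-0.13 to 0.30). They were -0.02 for WNT5A (-0.24 to 0.21), 0.08 for WNT5B (-0.30 to 0.46) and -0.25 for AXIN2 (-0.72 to 0.22). For these 7 genes the intervals lie within 1 log2 unit of 0, whereas the intervals of WNT11 (-2.10 to 0.74) and RNF43 (-2.44 to 0.75) were wide and rest on few reads. DKK1, at 5.48 and 0 normalized counts in sample cells against 17.0 and 17.6 in mock cells, was below the filter of that fit, and without the filter limma gave a log2 difference of -2.02 (95% interval -3.38 to -0.66, adjusted p = 0.937), which was not called. Without the deeper sample library the limma difference of LRP5 between sample and mock cells was 0.75 on the log2 scale. That estimate rests on the shallower sample library alone, with its variance taken from the other groups.

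Levels between genes were compared per kilobase of transcript. In sample cells the order of mean normalized counts per kilobase was LRP6 (358), WNT5A (152), ZNRF3 (144), LRP5 (112), WNT5B (72.3), LGR4 (56.4) and AXIN2 (34.3), followed by DKK1 (1.53), RNF43 (1.06) and WNT11 (1.01). WNT5A and ZNRF3 did not differ beyond their spread, and nor did the last 3. In mock cells LRP6 (336), WNT5A (159) and ZNRF3 (135) again led, then LRP5 (79.1), WNT5B (67.3), LGR4 (46.3), AXIN2 (35.9), DKK1 (9.68), WNT11 (2.61) and RNF43 (2.32) per kilobase. LGR4 and AXIN2, and WNT11 and RNF43, were within their spread there. In untransfected cells WNT11 (305) was second to LRP6 (487) and above LGR4 (211), LRP5 (159), WNT5A (142), RNF43 (121), ZNRF3 (91.9), AXIN2 (89.3), WNT5B (81.8) and DKK1 (0.943), with ZNRF3 and AXIN2 within their spread. On this scale WNT11 was the most abundant of the 3 Wnt ligands without transfection, and WNT5A was so in both transfected groups. The untransfected order depends on the transcript length taken. Undivided, mean normalized counts of WNT5A (877) were above those of WNT11 (589) in untransfected cells. A shorter WNT5A entry, of 1299 bases against 6176, held 834 and 790 normalized counts in untransfected cells. On the same scale RNF43 was above its partner ZNRF3 only in untransfected cells, which also depends on the transcript length taken. Undivided means there were 670 for RNF43 and 630 for ZNRF3. A shorter ZNRF3 entry, of 2667 bases against 6851, held 569 and 582 normalized counts in untransfected cells.

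The other genes of the pathway were taken from 9 lists of 107 genes, 12 of which had no reads. The authors' deposited table called 12 higher and 27 lower of 84 tested in sample against untransfected cells, and 14 higher and 41 lower of 88 tested in mock against untransfected cells, beside the shares of all genes given above. By limma the split in sample against untransfected cells was 15 higher and 31 lower of 82, but it was 17 higher and 19 lower without the deeper sample library, and 9 higher and 30 lower without the deeper untransfected library. The median deposited log2 fold change over tested genes of the lists was -0.15 in sample and -0.32 in mock cells, while the median over all genes tested was -0.0028 and -0.0039. The authors' deposited table called 0 of 81 tested list genes in sample against mock cells (3 at an unadjusted p under 0.05), as did limma (0 of 82, with 6 at an unadjusted p under 0.05).

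Counts for each list below stand beside the shares of all genes in the authors' deposited table. These were 20.2% higher and 17.1% lower in sample cells, and 27.5% and 23.4% in mock cells, against untransfected cells. The lists are short, and nothing further is read from their counts. Of the 16 other Wnt ligands, 1 was higher and 4 were lower of 10 tested, in sample as in mock cells against untransfected cells. WNT10A stood at 61.8 and 82.4 normalized counts in sample cells, 41.1 and 51.0 in mock cells, and 528 and 610.1 in untransfected cells. WNT6, its neighbour on the chromosome in human and many vertebrates, stood at 50.1 and 61.8 in sample cells, 42.5 and 40.8 in mock cells, and 438 and 473 in untransfected cells. Both were several-fold lower in every transfected library, with deposited log2 fold changes of -2.85 for each in sample cells, and -3.49 for WNT10A and -3.29 for WNT6 in mock cells, in the authors' deposited table. WNT10B, the paralog of WNT10A and a canonical ligand in bone, was higher, at 281 and 235 in sample cells, 269 and 339 in mock cells, and 134 and 123 in untransfected cells. WNT3 had the most reads among the ligands of the list that were not called, at 125 and 194 normalized counts in sample cells, 145 and 103 in mock cells, and 166 and 130.4 in untransfected cells. In the secretion list 2 genes were higher and 1 lower of 5 in sample as in mock cells: WLS, the carrier that brings Wnt proteins to the surface, was lower (log2 fold change -0.80 in sample and -0.74 in mock cells in the authors' deposited table), and the cargo receptors TMED5 (0.49 and 0.49) and TMED2 (0.29 and 0.46) were higher. VPS35, a retromer subunit that recycles WLS, had the most reads among those not called there, with log2 fold changes of -0.08 in sample and 0.00 in mock cells in the authors' deposited table.

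Among Frizzled and alternative receptors, 1 was higher and 5 lower of 13 tested in sample cells, and 2 higher and 6 lower of 13 in mock cells. ROR1, a receptor tyrosine kinase that binds WNT5A, stood at 235 and 342 normalized counts in sample cells, 247 and 225 in mock cells, and 1205 and 1324 in untransfected cells. FZD2 stood at 337 and 494 in sample cells, 325 and 336 in mock cells, and 1062 and 1197 in untransfected cells. FZD1 and FZD4 were lower too, with log2 fold changes of -0.84 and -0.59 in sample and -1.08 and -0.89 in mock cells in the authors' deposited table, while FZD6, which had the most reads of the receptors not called, stood at 2481 and 2096 in sample, 2486 and 2089 in mock, and 2559 and 2230.0 in untransfected cells. Of R-spondins and other LGR receptors, 1 was higher and 2 lower of 3 tested in sample cells, and 3 were lower of 5 tested in mock cells. The higher one in sample cells was the ligand RSPO4, with 43.0 and 169 normalized counts in sample cells, 56.0 and 53.8 in mock cells, and 35.7 and 36.3 in untransfected cells, and an adjusted p of 0.0495 by DESeq2 in the authors' deposited table. Its shallower sample library was far above the deeper one, which lay within the range of the other groups.

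Antagonists other than DKK1 were 1 higher and 5 lower of 10 tested in sample cells, and 1 higher and 7 lower of 12 in mock cells. KREMEN2 and KREMEN1, receptors through which DKK1 removes LRP6 from the surface, had log2 fold changes of -1.60 and -0.98 in sample and -1.80 and -1.01 in mock cells in the authors' deposited table. NOTUM, an enzyme that takes the lipid off Wnt proteins, stood at 35.2 and 53.5 normalized counts in sample cells, 41.1 and 32.5 in mock cells, and 107 and 105 in untransfected cells. DKK3, a divergent member of the DKK family, was lower by less, at 5721 and 4916 in sample cells, 5056 and 5151 in mock cells, and 7808 and 8068 in untransfected cells. TRABD2A, a protease that acts on Wnt proteins, was not called, with log2 fold changes of 0.35 in sample and 0.16 in mock cells in the authors' deposited table.

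Intracellular genes went both ways. Of Dishevelled and destruction complex genes, 3 were higher and 2 lower of 14 in sample cells, and 4 higher and 3 lower of 14 in mock cells. DVL1, a Dishevelled scaffold, stood at 5554 and 4759.9 normalized counts in sample cells, 5673 and 5402 in mock cells, and 2577 and 2402 in untransfected cells. Its paralog DVL2 was lower, at 707 and 667 in sample cells, 729.6 and 631 in mock cells, and 1256 and 1217 in untransfected cells. The kinase CSNK1A1, which primes beta-catenin for destruction, was higher, and APC2 was lower, with log2 fold changes of 0.60 and -1.23 in sample and 0.75 and -1.01 in mock cells in the authors' deposited table. CTNNB1, which codes for beta-catenin itself, was not called, at 15155 and 14873 normalized counts in sample cells, 14471 and 16058 in mock cells, and 15543 and 16597 in untransfected cells.

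Of TCF/LEF factors and their nuclear partners, 1 was higher and 2 lower of 11 in sample cells, and 1 higher and 5 lower of 11 in mock cells. Called either way were 27.3% in sample cells, below the share of all genes, and 54.5% in mock cells, near it. LEF1, itself known as a beta-catenin target, was the higher one, at 280.1 and 387 normalized counts in sample cells, 289 and 274 in mock cells, and 139 and 155 in untransfected cells. The co-repressor TLE2 had log2 fold changes of -0.96 in sample and -1.15 in mock cells, and PYGO2, a beta-catenin co-activator, of -0.45 and -0.63, in the authors' deposited table. TCF7L2 was lower in mock cells (-0.66, SE 0.22) and not called in sample cells (-0.04, SE 0.33) in the authors' deposited table, and its sample libraries were far apart, at 113 and 251 normalized counts, beside 101 and 119.6 in mock and 171 and 187 in untransfected cells. TLE3, with the most reads of the genes in this list not called, had log2 fold changes of 0.31 in sample and 0.17 in mock cells in the authors' deposited table.

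Other beta-catenin targets were 2 higher and 1 lower of 7 tested in sample cells, and 2 higher and 2 lower of 7 in mock cells. Cyclin D1 (CCND1) and the transcription factor TBX3 were higher, with log2 fold changes of 0.60 and 0.76 in sample and 0.78 and 1.25 in mock cells in the authors' deposited table. NKD1, a Dishevelled inhibitor used like AXIN2 as a readout of the pathway, was lower, at 101 and 107 normalized counts in sample cells, 104 and 110.4 in mock cells, and 182 and 168 in untransfected cells. BAMBI, a decoy receptor for BMP and TGF-beta ligands, was called lower in mock cells (-0.60, SE 0.17) and not called in sample cells (-0.45, SE 0.24) in the authors' deposited table. The feedback genes and beta-catenin targets described as such here thus moved both ways. AXIN2, RNF43 and NKD1 were lower and LEF1, TBX3, CCND1 and ZNRF3 higher in both transfected groups. In the authors' deposited table BAMBI was called lower and DKK1 higher in mock cells only. Limma called BAMBI lower in sample cells too, and DKK1 had no adjusted p in sample against untransfected cells. The split follows from which genes the lists count as targets and is no tally of all known ones.

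Planar cell polarity genes, which non-canonical ligands such as WNT11 are known to act through, were 0 higher and 5 lower of 11 in sample cells, and 1 higher and 10 lower of 11 in mock cells. By limma 1 was higher and 7 lower in sample cells. DAAM2, a formin that links Dishevelled to the actin cytoskeleton, stood at 694 and 926 normalized counts in sample cells, 549.5 and 499 in mock cells, and 3533 and 3772 in untransfected cells. PRICKLE2, a cytoplasmic polarity protein, stood at 721 and 918 in sample cells, 769 and 694 in mock cells, and 2987 and 3144 in untransfected cells. In these genes, as in the atypical cadherin CELSR2 (288 and 395 in sample, 250.3 and 222 in mock, 969 and 906 in untransfected cells) and PRICKLE1 (318 and 288 in sample, 347 and 355 in mock, 1143 and 1263 in untransfected cells), no transfected library came near the untransfected level.

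**Figure D3:**
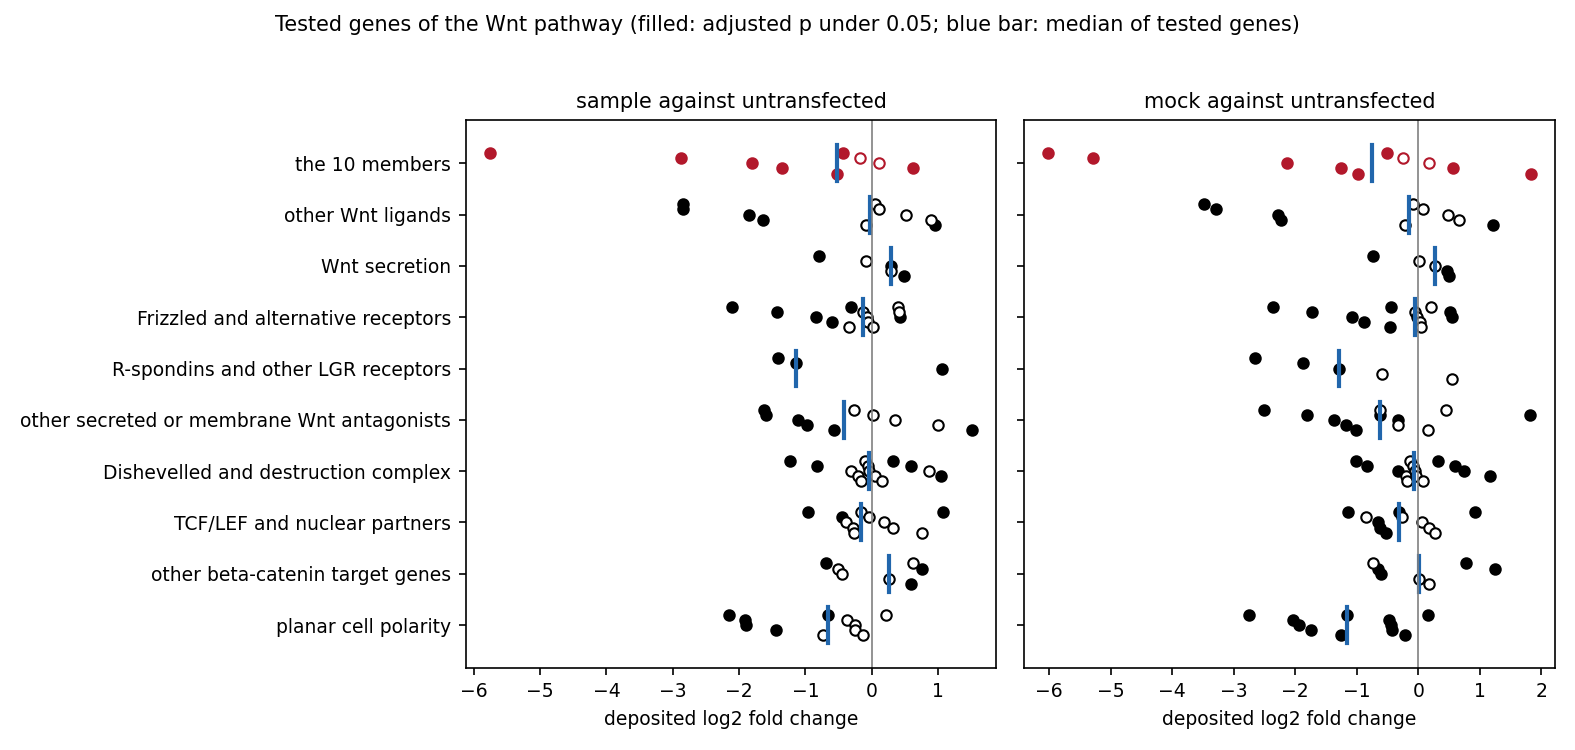
Deposited log2 fold changes of every tested gene of the 10 genes (red, top row) and of the 9 lists of other Wnt pathway genes (black), for sample against untransfected cells on the left and mock against untransfected cells on the right. Filled points had an adjusted p under 0.05 in the authors' deposited table, and blue bars are medians over the tested genes of a row. Planar cell polarity genes lie mostly left of 0, and WNT11 and RNF43 lie farther left than any gene of the lists in mock cells.

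The genes whose profile over the 6 libraries was nearest to WNT11 and RNF43 were found among 12576 genes that averaged 50 or more normalized counts over the libraries, by Euclidean distance of log2(normalized count + 1) after subtracting the untransfected mean. RNF43 was the nearest of all to WNT11 (distance 1.85), followed by PRND (1.95), ATP10B (2.11), FOXS1 (2.32) and the dopamine receptor gene DRD1 (2.41). The serotonin receptor gene HTR2A was nearest to RNF43 (1.55), and WNT11 came second, followed by FOXS1 (2.45), DRD1 (2.56) and ATP10B (2.83). All of these were far lower in the transfected than in the untransfected libraries, which follows from how they were picked. WNT11 and RNF43 were chosen for that difference, and each named gene reached the average of 50 only through its untransfected libraries. PRND, for example, stood at 0 and 0 normalized counts in sample cells, 0.709 and 0 in mock cells, and 151 and 195 in untransfected cells. DRD1 stood at 21.9 and 16.5 in sample cells, 68.1 and 23.2 in mock cells, and 2303 and 2599 in untransfected cells. The distances rest on 6 libraries in 3 groups and, for most of these genes, on few reads in the transfected ones, and carry no test.

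**Figure D4:**
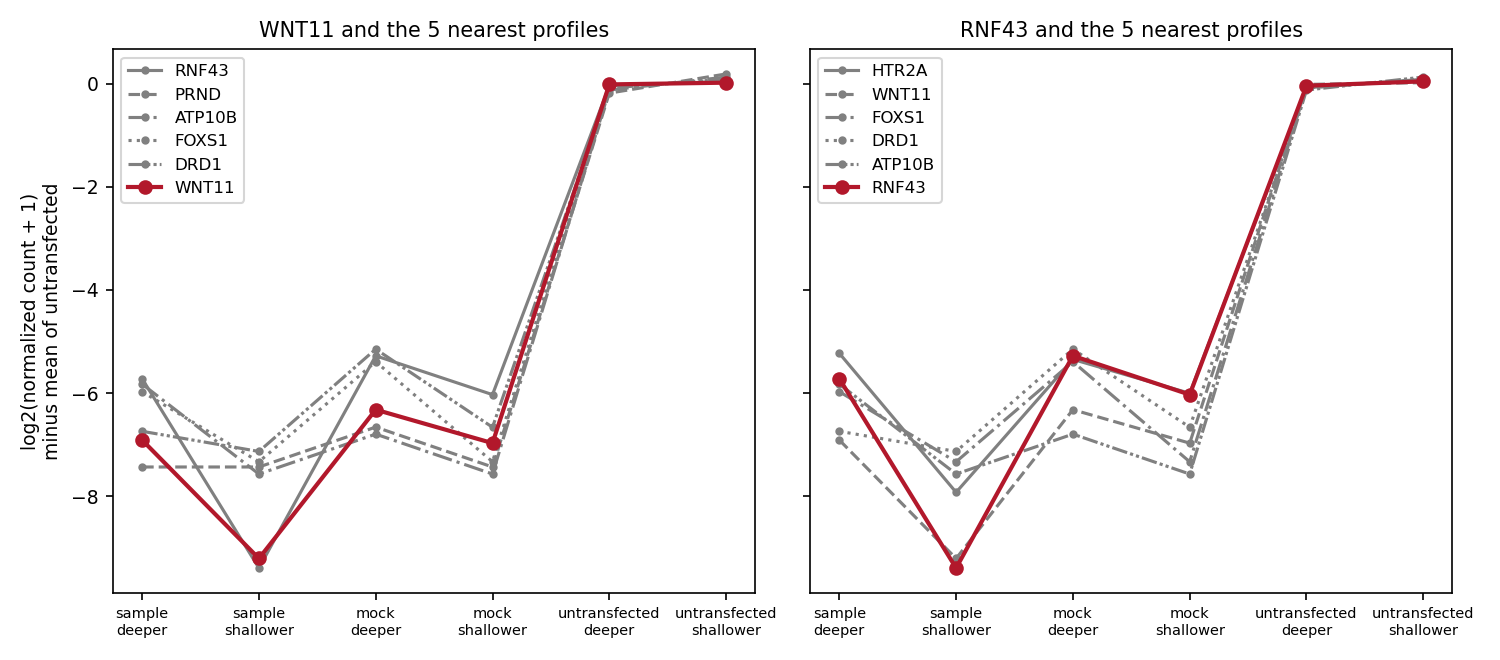
Profiles of WNT11 (left, red) and RNF43 (right, red) and of the 5 genes nearest to each (grey), as log2(normalized count + 1) minus the untransfected mean, over the 6 libraries from sample to untransfected. In every grey line the transfected libraries lie 5 or more log2 units below the untransfected ones, and most points of the shallower sample library are genes at 0 reads.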

How the data were processed

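Total RNA was isolated with a NucleoSpin kit and made into directional libraries with an NEBNext kit, per the labels' protocols. The authors used STAR, Bowtie, DESeq2 and hg38, without versions given, per the submitters' processing notes. How reads were counted, and on which annotation, is not given in the sources used here. Deposited were 3 tables, 1 for each comparison, that the authors fitted on 4 libraries each. Columns, per the file headers, are a mean signal (normalized counts averaged over the libraries), the log2 fold change with its standard error, a Wald score, a p-value and an adjusted p-value, for each of 40029 transcripts. Shrinkage toward 0 is visible in the deposited log2 values and is strongest for sample against mock cells.

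Each mean signal is a sum of whole reads divided by size factors. The reads of all 6 libraries were therefore solved from the deposited means by lattice reduction. Of 30527 entries with reads, 30527 gave whole numbers that returned all 3 means (relative tolerance 1e-14). These libraries cannot be tied to replicate numbers and are called deeper and shallower. Symbols were found for 99.2% of entries through RefSeq and GENCODE 29, and the others held 0.0841% of reads. Isoforms of a gene can share reads. Starts in the files count from 0 and are printed from 1. Size factors here are medians of ratios over the 6 libraries.

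The main calls are those of the authors' DESeq2 fit at an adjusted p under 0.05. The alternative was limma-voom (limma 3.58.1, R 4.3.3) on the recovered reads of genes averaging 10 or more normalized counts, tested first on simulated data. Other library sizes, filters, entries, pseudocounts of 1 and 5, and left-out libraries were also tried. Named are all 10 genes, up to 4 genes called in mock against untransfected cells per list (mean of 50 or more) and 1 not called, and the 5 nearest profiles. A gene that meets this rule is not reported here. The 10 genes and the lists were chosen with earlier results of these data known. Further tools were Python 3.11.15 with numpy 2.4.6, pandas 2.3.3 and scipy 1.17.1, and matplotlib 3.10.9 for figures.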

Additional observations from a re-analysis of the deposited data

How the results depend on the processing

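Of the log2 fold changes of the 10 genes under other fits, scalings, filters, entries and left-out libraries, 303 of 312 kept their direction and their side of the threshold. This total includes fits without a library outside the comparison, which could hardly change its difference. It also includes sample against mock cells, where none of the 10 genes was called in the authors' deposited table. The share kept is therefore no measure of robustness. Direction changed 5 times, each time with 1 library left out and in differences that were not called with or without it. With 1 library left out, the log2 difference of WNT5A ran from -0.025 to 0.21 in sample against untransfected cells and from -0.19 to 0.047 in sample against mock cells, and in sample against mock cells that of WNT5B ran from -0.0064 to 0.19 and that of AXIN2 from -0.42 to 0.18. The calls that changed were those of WNT5B in mock against untransfected cells, which was called lower with total-count sizes (-0.42) and with upper-quartile sizes (-0.38), and LRP5 without the deeper sample library (-0.25 for sample against untransfected and 0.75 for sample against mock cells). In sample against mock cells, leaving out 1 library gave 0 to 1 called of the 10 genes and 0 to 7 of the other pathway genes, and all of these calls came without the deeper sample library, when the lone shallower library was assumed to vary like the other groups. Leaving out 1 library gave 6 to 7 called of the 10 genes in sample and 7 in mock against untransfected cells, and 36 to 53 and 43 to 58 of the other pathway genes. Unshrunk log2 ratios of group means depended on the pseudocount for genes near 0: with pseudocounts of 1 and 5 they were -7.64 and -6.42 for WNT11 and -6.61 and -5.96 for RNF43 in sample against untransfected cells. The cause of these changes was not tested. No paired analysis was possible because the libraries in the tables cannot be tied to replicate numbers. At 9579278 reads the shallower sample library limits what can be said of WNT11, RNF43 and DKK1 in sample cells.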
